A study of Homo sapiens with 10 samples.

Results

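The genes described here are 53 genes of the interferon response and antigen presentation, followed in cells of the colorectal cancer line DLD-1 after a short hairpin RNA (shRNA) against LMNB1. They were chosen by name from textbook knowledge of the pathway, with earlier results of these data known. For each, the array probe that carries that gene symbol and no other was used. Such a probe was found for 47 of the 53 genes, among 14232 genes with one on the array. Of these, 36 had a mean level above 5.96 on the log2 scale, which is the 25th percentile over all probes, and entered the tests. The 11 below it were DDX60, IFIT2, MX1, OAS2, RSAD2, BST2, SAMD9L, IFI44, IFI44L, HERC5 and TRIM22. No value was assigned to STAT2, which the probe annotation used here does not list, nor to IFITM2, IFITM3, GBP1, GBP2 and USP18, whose probes carry a second gene symbol.

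The 10 arrays, gene-level exon arrays, fall into 4 groups. The hairpin construct V2LHS_62673 was carried by 3 clones grown from single cells (8, 9 and 12), each measured once. The construct V2LHS_62675 was carried by 1 clone with 3 arrays, called clone 2 in the descriptions and the design text, which were followed, and clone 12 in the titles. Controls comprised 3 separate empty vector clones, each measured once, and untransfected wild type cells on 1 array. All groups are the same cell line in RPMI medium with serum, and all except the wild type cells were kept in puromycin, so vector, puromycin and cloning cannot be told apart in a comparison with wild type cells. The 3 arrays of clone 2 were averaged, which gave 8 clone-level samples, and construct V2LHS_62675 is therefore represented by a single clone. P-values measure the spread between these clones.

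Cells sense viral RNA or DNA through receptors such as TLR3 and IFIH1, which act through IRF3 and IRF7 to induce type I interferon. Secreted interferon signals through its receptor and the JAK kinases to a complex that holds STAT2 and IRF9 and binds the interferon-stimulated response element (ISRE) in the promoters of the genes that inhibit viral replication. Interferon gamma acts at the gamma-activated site (GAS) and raises class I antigen presentation. Short hairpin RNAs are partly double-stranded and can raise the response by themselves, which is the reason to compare hairpin clones with empty vector clones. No group carried a hairpin against another target. The hairpin itself and the lower LMNB1 level therefore cannot be told apart in that comparison.

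The promoters of the members show the element that the family shares. In a table of RefSeq promoters (GRCh38.p14, 250 bases before to 50 after each start), 42 of the 53 members were present. The ISRE core, searched as GAAANNGAAA on both strands, was found in 29 of these 42 genes (69.0%), against 4.38% of all 27305 genes of the table. The GAS, searched as TTCNNNGAA on both strands, was found in 13 of the 42 (31.0%), against 9.38% of all genes. The 2 motifs do not contain each other but may overlap. The 200 bases before the start are shown for the 5 members that passed the test in any comparison and for ISG15, a much used marker of the response that did not. Capitals mark every match to either motif, and each promoter is written in the direction of its gene.
IFIT3, chr10:89327797-89327996, plus strand: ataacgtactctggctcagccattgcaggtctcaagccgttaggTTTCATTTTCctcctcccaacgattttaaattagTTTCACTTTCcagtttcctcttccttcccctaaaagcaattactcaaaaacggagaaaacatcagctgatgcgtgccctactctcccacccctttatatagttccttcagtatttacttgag
IRF9, chr14:24161065-24161264, plus strand: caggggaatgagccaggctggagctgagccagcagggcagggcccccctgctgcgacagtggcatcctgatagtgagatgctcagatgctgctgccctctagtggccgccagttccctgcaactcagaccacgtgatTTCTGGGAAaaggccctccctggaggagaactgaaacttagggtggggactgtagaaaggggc
OAS1, chr12:112906762-112906961, plus strand: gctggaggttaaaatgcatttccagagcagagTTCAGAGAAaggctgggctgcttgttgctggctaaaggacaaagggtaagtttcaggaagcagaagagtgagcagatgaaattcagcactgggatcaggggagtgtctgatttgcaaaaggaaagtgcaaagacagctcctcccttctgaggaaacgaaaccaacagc
SAMD9, chr7:93117980-93118179, minus strand: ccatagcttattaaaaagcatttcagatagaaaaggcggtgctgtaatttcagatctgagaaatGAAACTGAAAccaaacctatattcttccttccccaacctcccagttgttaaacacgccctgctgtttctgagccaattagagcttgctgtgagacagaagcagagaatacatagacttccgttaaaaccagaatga
B2M, chr15:44711317-44711516, plus strand: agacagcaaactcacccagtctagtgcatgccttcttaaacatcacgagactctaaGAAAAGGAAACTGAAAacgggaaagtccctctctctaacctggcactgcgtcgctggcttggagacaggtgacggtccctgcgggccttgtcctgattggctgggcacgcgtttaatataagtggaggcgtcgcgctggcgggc
ISG15, chr1:1013297-1013496, plus strand: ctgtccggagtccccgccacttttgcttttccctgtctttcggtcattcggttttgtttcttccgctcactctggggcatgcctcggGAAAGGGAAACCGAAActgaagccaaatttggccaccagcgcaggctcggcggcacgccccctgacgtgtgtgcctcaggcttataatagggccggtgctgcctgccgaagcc
IFIT3 held ISRE cores that began 156 and 122 bases before the start on the opposite strand, and B2M held overlapping cores at 144 and 138 bases. ISG15 likewise held overlapping cores at 113 and 107 bases, and SAMD9 held 1 at 136 bases. In IRF9 and OAS1 the only match was a GAS, at 63 and 168 bases. The pattern GAAANNGAAA fixes the gap between the GAAA blocks, so blocks closer together are missed. The OAS1 stretch holds such a pair, gaaacgaaa, near its end. A promoter without a match can therefore still hold an ISRE. Several members are also neighbours in the genome, with no protein-coding gene between them: OAS1, OAS3 and OAS2 on chromosome 12, IFIT2 and IFIT3 as well as IFIT1 and IFIT5 on chromosome 10, MX2 and MX1 on chromosome 21, and SAMD9 and SAMD9L on chromosome 7.

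The arrays matched their labels with 1 array apart from the others. The LMNB1 probe, shared with PCIF1 by annotation, was 7.65 ± 0.14 in the 4 knockdown clones and 9.11 ± 0.30 in the 4 controls (mean ± SD, log2, exact permutation p = 0.0286, the smallest that 70 regroupings allow). Epithelial markers such as EPCAM (11.26 to 11.79) were high and the leukocyte marker PTPRC (3.82 to 4.28) was low on the 10 arrays, while KRT20, a marker of differentiated colon cells, was low as well (4.78 to 5.44). Clone 8 correlated with the other arrays at 0.915 to 0.926, which correlated with each other at 0.986 to 0.994. Its median was 7.62 against 7.34 to 7.41. Markers of leukocytes, fibroblasts and endothelium were highest in clone 8 for 7 of 8, 6 of 6 and 5 of 5 genes, and their mean levels there were 6.49, 6.995 and 6.11, against at most 6.17, 6.47 and 5.58 elsewhere. Of all features, clone 8 was likewise the highest array for 82.4% of those below the filter level, 71.9% of those between it and a log2 level of 8, and 19.6% of those above 8, and for 2 of 8 epithelial markers. The part of these markers in the results of clone 8 was not tested. The differences of the V2LHS_62675 clone and of wild type cells from the empty vector clones are the same with and without clone 8, which is in none of those groups. With it in the fit their SE was larger and their adjusted p was 1 for every gene named. In comparisons that hold the V2LHS_62673 clones the difference changes too, and both values are given where a fold or difference is printed.

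**Figure D1:**
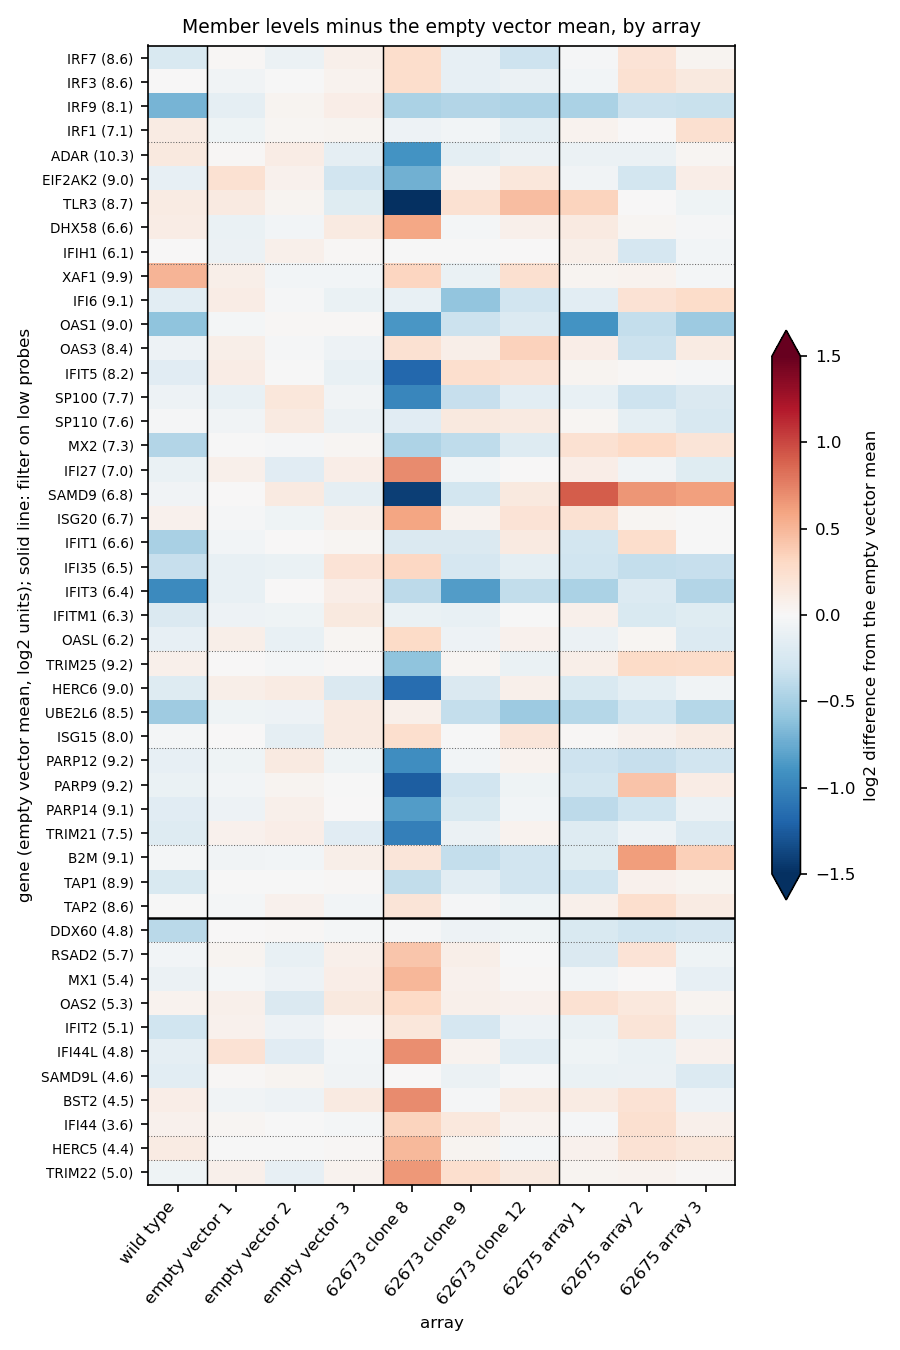
Log2 level of the 47 members with their own probe on each of the 10 arrays, as the difference from the mean of the 3 empty vector clones (colour, log2 units; the number after each gene is that mean). Rows are grouped by role, and genes under the solid line lie below the filter. IRF9, IFIT3 and OAS1 are lower outside the empty vector clones, SAMD9 is higher on the 3 arrays of clone 2, and the clone 8 column differs from all others.

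With all clones in the fit, no member passed the test in any of the 5 comparisons, and neither did any of the 11199 features tested (0%). The test was limma on the log2 values, with p-values adjusted over all of these features by Benjamini-Hochberg and called under 0.05. At an unadjusted p under 0.05 there were 0 of 36 members for knockdown clones against controls (2.29% of all features), 3 for construct V2LHS_62673 against the empty vector (IRF9, IFIT3 and MX2, all lower, beside 3.21%) and 0 for V2LHS_62675 against it (beside 2.64%). There were 2 for wild type cells against the empty vector (IFIT3 and IRF9, both lower, beside 2.59%) and 1 between the constructs (MX2, beside 2.22%). Weighting the arrays by their quality, with clone 8 kept in, called 4, 2, 4 and 4 members in the last 4 comparisons, beside 3.02%, 4.21%, 4.28% and 3.31% of all features. In the first it called 0 members, beside 0.0625%.

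Without clone 8, IFIT3, IRF9, OAS1, SAMD9 and B2M each passed in at least 1 comparison. Counts are given below by comparison, beside the share of all features. IFIT3, IRF9 and OAS1 were lower in wild type cells than in the empty vector clones, and OAS1 was also lower in the V2LHS_62675 clone. SAMD9 was higher in that clone than in the empty vector clones and the V2LHS_62673 clones, and B2M was higher than in the V2LHS_62673 clones. Each of these calls has an arm of 1 sample, wild type cells or the V2LHS_62675 clone, whose own spread was not measured and is assumed to be that of the other clones. Knockdown clones against all controls called 0 of 36 members and 0% of all features, with SP100 the only member at an unadjusted p under 0.05 (2.78%, beside 6.46% of all features). For V2LHS_62673 against the empty vector the count was 0 of 36 beside 0.991% of all features, with 11 members at an unadjusted p under 0.05 (30.6%, beside 15.9% of all features), of which 9 were lower. For V2LHS_62675 it was 2 of 36 beside 3.74%, for wild type cells 3 of 36 beside 3.57%, and between the constructs 2 of 36 beside 2.15%. At an unadjusted p under 0.05 these 3 comparisons held 7, 8 and 6 members (19.4%, 22.2% and 16.7%), beside 18.2%, 19.7% and 15.2% of all features. The comparisons share the empty vector clones, so their values are not independent of each other.

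The members as a group did not sit higher in the hairpin clones. In construct V2LHS_62673, 10 of 36 were higher and 26 lower than in the empty vector clones, both with clone 8 and without it, with a median difference of -0.20 (-0.06 without clone 8) beside 0.04 (0.00 without) over all features. In construct V2LHS_62675, 16 were higher and 20 lower, with a median of -0.04 beside 0.02. In wild type cells, 9 were higher and 27 lower, with a median of -0.11 beside -0.01. Of all features, 55.2% (49.8% without clone 8) were higher in V2LHS_62673, 56.4% in V2LHS_62675 and 48.2% in wild type cells. By array, the median of the members against the empty vector mean was -0.20 in clone 8, -0.12 in clone 9 and -0.02 in clone 12. Over all features the medians there were 0.18, 0.002 and -0.004. On the 3 arrays of clone 2 the median of the members was -0.05, 0.01 and -0.02, beside 0.02, 0.04 and -0.01 over all features. The medians of the members are set beside the spread of the empty vector clones themselves, whose own medians had an SD of 0.02. Each empty vector clone was compared with a mean that includes itself, which shrinks its median. The other arrays are not part of that mean, so the SD of 0.02 understates the spread to set them against.

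**Figure D2:**
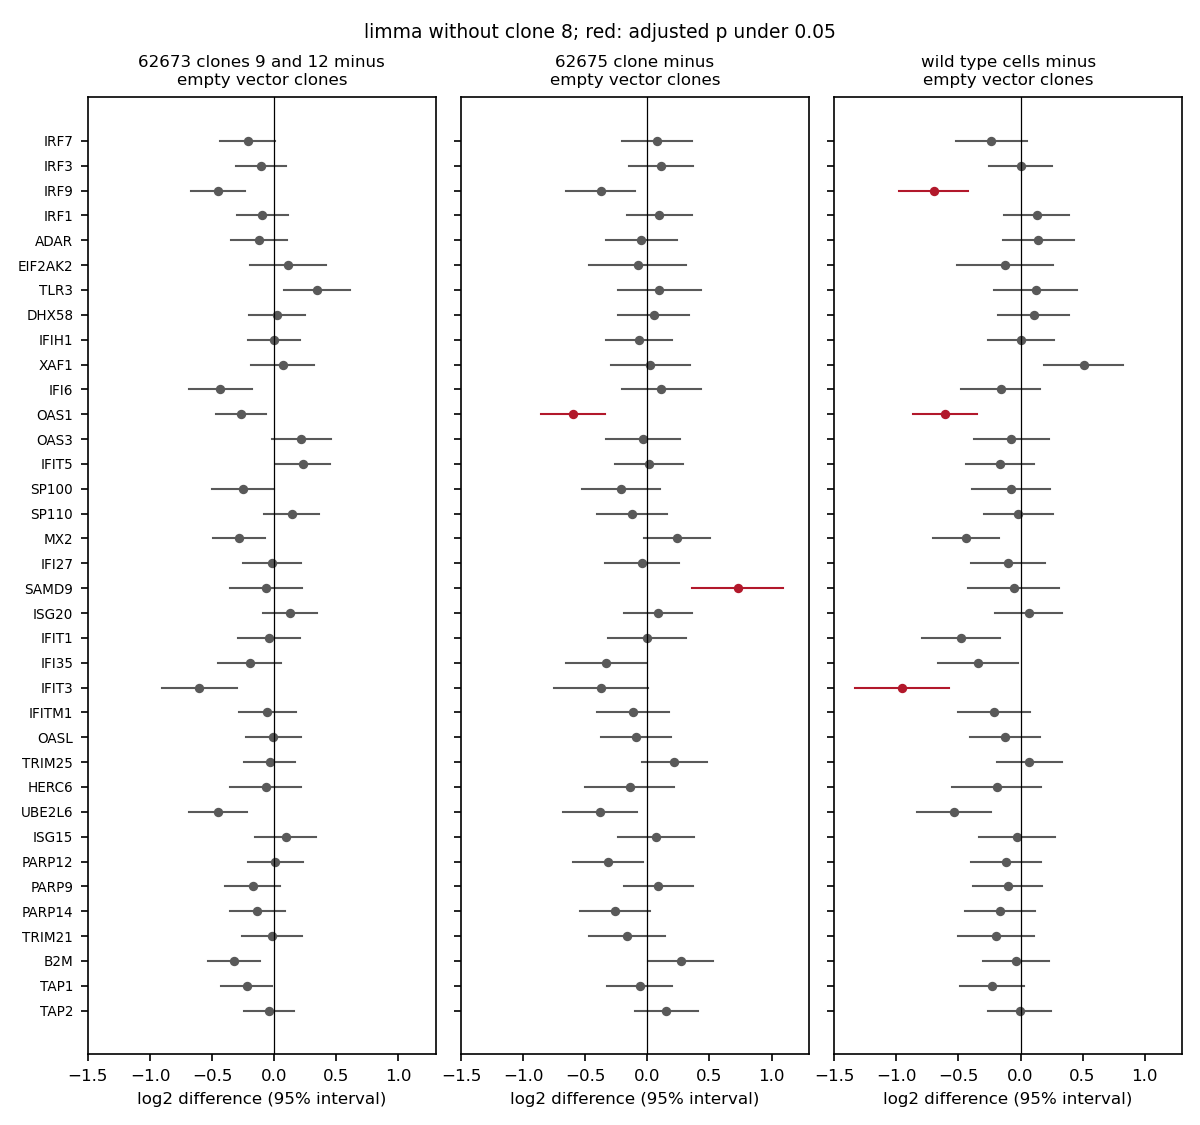
Log2 difference and 95% interval for the 36 tested members in the limma fit without clone 8, for clones 9 and 12 of construct V2LHS_62673, the V2LHS_62675 clone and wild type cells, each against the 3 empty vector clones. Red marks an adjusted p under 0.05: none in the first panel, OAS1 and SAMD9 in the second, and IRF9, IFIT3 and OAS1 in the third.

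Among the transcription factors, IRF9 was the one that differed. IRF9 is the DNA-binding partner of STAT2. It was 7.97, 8.14 and 8.19 in the empty vector clones, 7.62, 7.66 and 7.63 in clones 8, 9 and 12, 7.62, 7.78 and 7.77 on the arrays of clone 2, and 7.40 in wild type cells. All 3 empty vector clones lay above the 7 other arrays. Wild type cells differed from the empty vector clones by -0.70 (SE 0.126, 95% interval -0.98 to -0.42, 1.62-fold lower), with an adjusted p of 0.0226 without clone 8 and 1 with it. Without clone 8 the differences of V2LHS_62673 (-0.45, SE 0.0999, adjusted p = 0.0646) and V2LHS_62675 (-0.38, SE 0.126, adjusted p = 0.131) did not pass. With it V2LHS_62673 differed by -0.46 (SE 0.14, adjusted p = 0.742). IRF1, which is induced by interferon gamma, was 7.06, 7.15 and 7.16 in empty vector clones, 7.25 in wild type cells, 7.04, 7.08 and 6.97 in clones 8, 9 and 12, and 7.18, 7.13 and 7.37 on the clone 2 arrays. These groups lay close together and no comparison passed. IRF3 (8.50 to 8.88) and IRF7 (8.32 to 8.89), which switch on the interferon genes, had their highest level in clone 8 and passed in no comparison.

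None of the 5 tested members grouped here as RNA sensors and receptors passed the test in any comparison. That group leaves out OAS1, which is described with the antiviral effectors. TLR3, the endosomal receptor for double-stranded RNA, was 8.85, 8.76 and 8.52 in empty vector clones, 7.14, 8.93 and 9.17 in clones 8, 9 and 12, 9.04, 8.72 and 8.65 on the clone 2 arrays and 8.83 in wild type cells. Its low value in clone 8 gave it the largest SD of all members. Clones 9 and 12 without clone 8 were 0.34 above the empty vector clones (SE 0.12, adjusted p = 0.196). With clone 8 the difference had the opposite sign, at -0.30 (SE 0.5, adjusted p = 0.782). EIF2AK2, the kinase PKR that double-stranded RNA activates, was 9.22, 9.06 and 8.71 in empty vector clones and 8.27, 9.05 and 9.17 in clones 8, 9 and 12. Wild type cells had 8.87 and the clone 2 arrays 8.94, 8.72 and 9.10, all within the range of the empty vector clones. ADAR, the RNA-editing enzyme, was the member with the highest mean level: 10.31, 10.41 and 10.15 in empty vector clones, 10.43 in wild type cells, 9.39, 10.14 and 10.20 in clones 8, 9 and 12, and 10.20, 10.21 and 10.32 on the clone 2 arrays. Clone 8 alone lay below the other 9 arrays. The cytosolic receptors IFIH1 (5.82 to 6.16) and DHX58 (6.48 to 7.15) were close to the filter level, and DDX60 (4.38 to 4.81) was below it.

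Of the IFIT genes, whose proteins bind viral RNA, IFIT3 passed and the others did not. IFIT3 was 6.32, 6.44 and 6.53 in empty vector clones, 6.03, 5.59 and 6.07 in clones 8, 9 and 12, 5.96, 6.22 and 5.99 on the clone 2 arrays, and 5.48 in wild type cells. As with IRF9, the empty vector clones lay above every other array. Wild type cells differed from them by -0.95 (SE 0.171, 95% interval -1.33 to -0.57, 1.93-fold lower, adjusted p = 0.0226 without clone 8, 1 with it). Without clone 8, V2LHS_62673 differed by -0.60 (SE 0.135, adjusted p = 0.0678) and V2LHS_62675 by -0.37 (SE 0.171, adjusted p = 0.282), neither past the threshold. With clone 8, V2LHS_62673 differed by -0.53 (SE 0.178, adjusted p = 0.742). IFIT1 was 6.59, 6.64 and 6.67 in empty vector clones and 6.15 in wild type cells, a difference of -0.48 (SE 0.142, adjusted p = 0.0889 without clone 8). The hairpin clones overlapped the empty vector clones, at 6.41, 6.42 and 6.76 in clones 8, 9 and 12 and 6.36, 6.89 and 6.63 on the clone 2 arrays. IFIT5 was 8.34, 8.23 and 8.12 in empty vector clones, 8.07 in wild type cells, 7.05, 8.48 and 8.45 in clones 8, 9 and 12, and 8.27, 8.25 and 8.21 on the clone 2 arrays, with clone 8 alone far below the rest. V2LHS_62673 differed in IFIT5 by 0.23 without clone 8 and by -0.24 with it, and neither passed. IFIT2 (4.83 to 5.33) lay below the filter.

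OAS1, a synthetase of the 2-5A messenger that activates RNase L, was lower outside the empty vector clones. It was 8.96, 9.01 and 9.00 in empty vector clones, 8.12, 8.67 and 8.78 in clones 8, 9 and 12, 8.10, 8.63 and 8.44 on the clone 2 arrays, and 8.38 in wild type cells. The empty vector clones were above the other 7 arrays and differed among themselves by far less than any other group. The V2LHS_62675 clone differed by -0.60 (SE 0.116, 95% interval -0.85 to -0.34, 1.51-fold lower) with an adjusted p of 0.0223 without clone 8. Wild type cells differed by -0.61 (SE 0.116, 1.52-fold lower, adjusted p = 0.0254 without clone 8), and V2LHS_62673 by -0.27 (SE 0.0915, adjusted p = 0.19). With clone 8 the last was -0.47 (SE 0.2, adjusted p = 0.742). Its neighbour OAS3 (8.05 to 8.72), a second synthetase, and OASL (5.98 to 6.48), the related gene without that activity, passed in no comparison. OAS2 (5.04 to 5.55) was below the filter.

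Of the 36 tested members, IRF9, IFIT3 and OAS1 were the 3 whose empty vector arrays all lay above the other 7 arrays, beside 2.82% of all features. In 0 of 36 did they lie below the other 7, beside 1.59% of all features. These 3 were also the members called in wild type cells, so the count and the test are not independent.

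**Figure D3:**
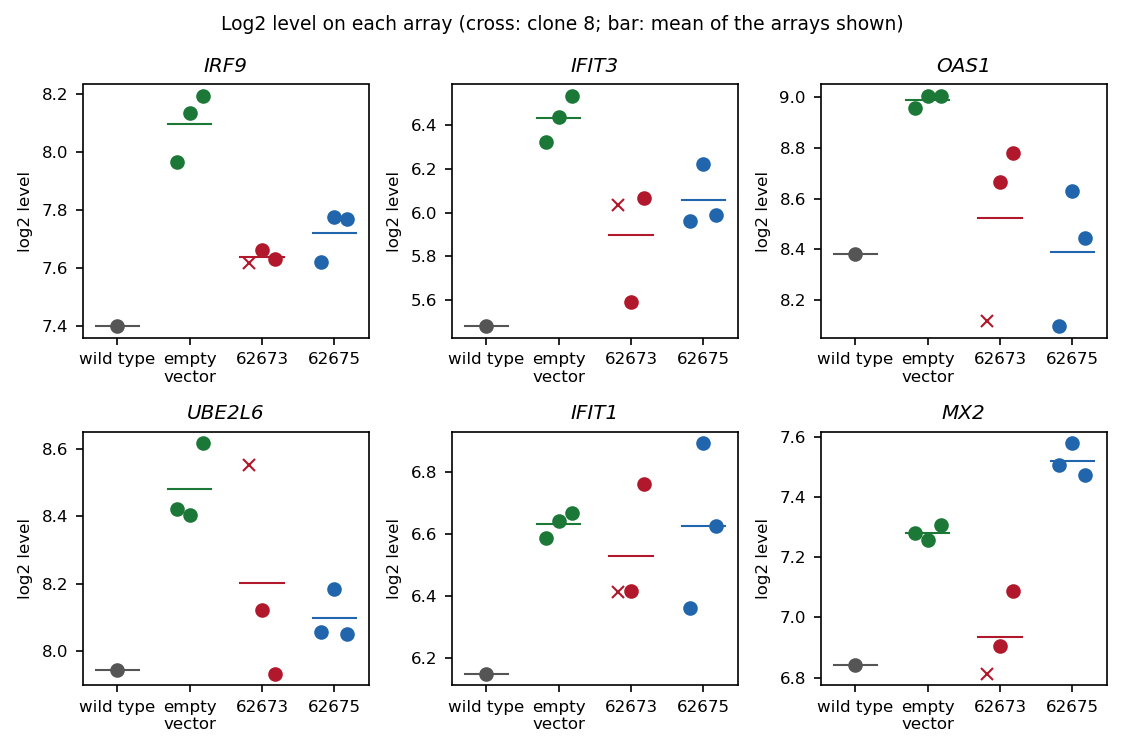
Log2 level of 6 members on each array, by group (points are arrays, the cross is clone 8, the bar is the mean of the arrays shown; the 3 points of V2LHS_62675 are arrays of 1 clone). IRF9, IFIT3 and OAS1 are highest on the 3 empty vector arrays, UBE2L6 and IFIT1 overlap between groups, and MX2 is lowest in wild type cells and the V2LHS_62673 clones and highest on the V2LHS_62675 arrays.

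MX2 and SAMD9 were the antiviral effectors with the clearest difference between constructs, with V2LHS_62675 represented by a single clone. MX2, a dynamin-like GTPase that blocks retroviruses, was 6.81, 6.91 and 7.09 in clones 8, 9 and 12 and 7.51, 7.58 and 7.47 on the clone 2 arrays, with the empty vector clones between them at 7.28, 7.26 and 7.31 and wild type cells at 6.84. The 2 constructs did not overlap, but the difference between them did not pass (0.58, SE 0.203, adjusted p = 0.931 with clone 8; 0.52, SE 0.128, adjusted p = 0.0664 without). Its neighbour MX1, the influenza-restricting homologue, lay below the filter in its mean. It was 5.38, 5.33 and 5.50 in empty vector clones, 5.31 in wild type cells, 5.90, 5.47 and 5.42 in clones 8, 9 and 12, and 5.36, 5.41 and 5.28 on the clone 2 arrays. SAMD9, a restriction factor of poxviruses, was 6.83, 6.95 and 6.69 in empty vector clones, 6.77 in wild type cells, 5.41, 6.55 and 6.97 in clones 8, 9 and 12, and 7.73, 7.48 and 7.44 on the clone 2 arrays. The 3 arrays of clone 2 were above the other 7, and clone 8 was far below all of them. Without clone 8, clone 2 was higher by 0.73 than the empty vector clones (SE 0.166, 1.66-fold, adjusted p = 0.041) and by 0.79 than the V2LHS_62673 clones (SE 0.176, 1.73-fold, adjusted p = 0.0486). With clone 8 these were 0.73 (SE 0.529) and 1.24 (SE 0.529), with adjusted p of 1 and 0.931, so the larger difference did not pass. SAMD9L, the adjacent paralogue, was 4.41 to 4.67 and below the filter.

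The other antiviral effectors passed in no comparison. XAF1, a pro-apoptotic gene and one of the 2 members with the highest mean, was 10.38 in wild type cells, 9.96, 9.83 and 9.84 in empty vector clones, 10.20, 9.78 and 10.11 in clones 8, 9 and 12, and 9.92, 9.92 and 9.85 on the clone 2 arrays. Wild type cells had its highest level (difference 0.51, SE 0.144, adjusted p = 0.0788 without clone 8), the opposite side from IFIT3 and IRF9. IFI6, an inhibitor of viral replication at the endoplasmic reticulum, was 9.22, 9.10 and 9.02 in empty vector clones, 8.96 in wild type cells, 9.00, 8.53 and 8.83 in clones 8, 9 and 12, and 8.96, 9.34 and 9.39 on the clone 2 arrays. Its difference between constructs was 0.55 without clone 8 (SE 0.154, adjusted p = 0.097) and 0.44 with it (SE 0.243, adjusted p = 0.931). All 3 arrays of clone 2 were above clones 9 and 12, and array 1 was below clone 8. SP100, a nuclear body protein, was 7.62, 7.89 and 7.67 in empty vector clones, 7.65 in wild type cells, 6.75, 7.39 and 7.57 in clones 8, 9 and 12, and 7.61, 7.42 and 7.51 on the clone 2 arrays. Against all controls its difference was -0.40 with clone 8 (SE 0.186) and -0.22 without it (SE 0.0896), at adjusted p of 0.761 and 0.756. IFI35 was 6.37, 6.38 and 6.69 in empty vector clones and 6.14 in wild type cells. It was 6.79, 6.23 and 6.33 in clones 8, 9 and 12, and 6.18, 6.13 and 6.13 on the clone 2 arrays. Clone 8 was the one array not below the empty vector clones. Clone 2 and wild type cells each differed from them by -0.34, and neither passed. IFI27, IFITM1, ISG20 and SP110 ranged from 6.86 to 7.75, 6.03 to 6.41, 6.67 to 7.32 and 7.31 to 7.70. RSAD2, BST2, IFI44 and IFI44L, all strongly inducible genes, stayed between 3.55 and 6.07 on all arrays, below the filter in their means.

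The ISG15 system attaches a ubiquitin-like protein to other proteins. ISG15 itself was 7.99, 7.85 and 8.12 in empty vector clones, 7.96 in wild type cells, 8.24, 7.99 and 8.17 in clones 8, 9 and 12, and 8.01, 8.05 and 8.11 on the clone 2 arrays. The groups overlapped. Without clone 8, V2LHS_62673 differed from the empty vector by 0.09 (95% interval -0.15 to 0.33) and V2LHS_62675 by 0.07 (95% interval -0.24 to 0.37). With clone 8 these were 0.14 (-0.22 to 0.50) and 0.07 (-0.44 to 0.58). UBE2L6, the conjugating enzyme for ISG15, was 8.42, 8.40 and 8.62 in empty vector clones, 7.94 in wild type cells, 8.55, 8.12 and 7.93 in clones 8, 9 and 12, and 8.06, 8.19 and 8.05 on the clone 2 arrays. Clone 8 was the one array that overlapped the empty vector clones. Without it the differences were -0.45 (SE 0.107, adjusted p = 0.0762) for V2LHS_62673, -0.38 (SE 0.135, adjusted p = 0.149) for V2LHS_62675 and -0.54 (SE 0.135, adjusted p = 0.0558) for wild type cells. With it V2LHS_62673 differed by -0.28 (SE 0.195, adjusted p = 0.742). TRIM25, a ubiquitin ligase for the sensor RIGI, was 9.20, 9.16 and 9.20 in empty vector clones, 9.26 in wild type cells, 8.58, 9.22 and 9.08 in clones 8, 9 and 12, and 9.27, 9.47 and 9.46 on the clone 2 arrays. HERC6, a relative of the ISG15 ligase, was 9.11, 9.14 and 8.81 in empty vector clones, 8.83 in wild type cells, 7.88, 8.81 and 9.10 in clones 8, 9 and 12, and 8.79, 8.88 and 8.97 on the clone 2 arrays, again with clone 8 apart. HERC5, the main human ISG15 ligase, was 4.33 to 4.85, below the filter, as was TRIM22 in the next group at 4.88 to 5.67.

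Each of the 3 ADP-ribosyltransferases and TRIM21 was lowest in clone 8, and none passed in any comparison. PARP9 was 9.12, 9.21 and 9.16 in empty vector clones, 9.06 in wild type cells, 7.93, 8.88 and 9.10 in clones 8, 9 and 12, and 8.89, 9.59 and 9.27 on the clone 2 arrays. PARP14 was 8.23 in clone 8 against 8.67 to 9.14 on the other 9 arrays, and TRIM21, the cytosolic antibody receptor, 6.45 against 7.26 to 7.58. PARP12 was 9.17, 9.37 and 9.18 in empty vector clones, 9.12 in wild type cells, 8.31, 9.20 and 9.30 in clones 8, 9 and 12, and 8.93, 8.89 and 8.95 on the clone 2 arrays. Without clone 8, clone 2 differed from the V2LHS_62673 clones in PARP12 by -0.33 (SE 0.135, adjusted p = 0.276) and from the empty vector clones by -0.32 (SE 0.127, adjusted p = 0.213), and neither passed. The 3 arrays of clone 2 lay below every other array except clone 8. The difference from the empty vector clones passed with each array as a sample and clone as a random effect (adjusted p = 0.0325). The clone correlation in that fit was -0.056, so the 3 arrays of clone 2 counted nearly as separate samples. That pass therefore does not measure the spread between clones. With clone 8, clone 2 differed from the V2LHS_62673 clones by -0.01 (SE 0.386, adjusted p = 0.994).

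For antigen presentation, B2M differed between the V2LHS_62675 clone and clones 9 and 12 of V2LHS_62673. B2M, the light chain of class I molecules, was 9.06, 9.06 and 9.20 in empty vector clones, 9.07 in wild type cells, 9.29, 8.75 and 8.81 in clones 8, 9 and 12, and 8.92, 9.73 and 9.46 on the clone 2 arrays. Clone 2 was higher than clones 9 and 12 by 0.59 (SE 0.127, 95% interval 0.31 to 0.87, 1.51-fold, adjusted p = 0.0424). With clone 8 the difference was 0.42 (SE 0.261, adjusted p = 0.931). The arrays of clone 2 spread more than any group of clones, with an SD of 0.41, and array 1 lay below the empty vector clones while arrays 2 and 3 lay above them. TAP1, a subunit of the peptide transporter, was 8.87, 8.88 and 8.91 in empty vector clones, 8.65 in wild type cells, 8.51, 8.73 and 8.60 in clones 8, 9 and 12, and 8.59, 8.95 and 8.93 on the clone 2 arrays. All V2LHS_62673 clones and wild type cells were below the empty vector clones, with a difference of -0.22 (SE 0.0922, adjusted p = 0.274) for the former without clone 8 and -0.27 (SE 0.138, adjusted p = 0.742) with it. TAP2, its partner, was 8.52 to 8.84 and passed in no comparison.

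**Figure D4:**
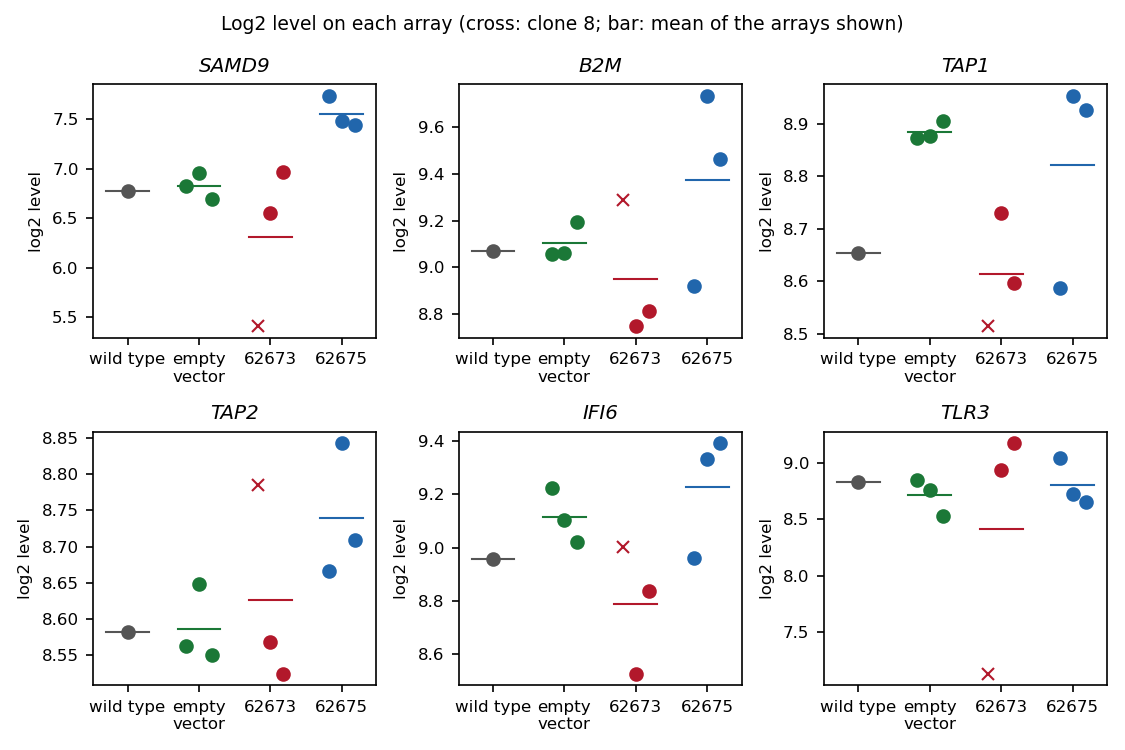
Log2 level of SAMD9, B2M, TAP1, TAP2, IFI6 and TLR3 on each array, by group (points are arrays, the cross is clone 8, the bar is the mean of the arrays shown; the 3 points of V2LHS_62675 are arrays of 1 clone). The 3 arrays of V2LHS_62675 lie at 7.44 to 7.73 for SAMD9, above all others, and spread from 8.92 to 9.73 for B2M, while clone 8 is lowest for SAMD9 and TLR3.

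The calls depended on which empty vector clones were in the fit, and less so the differences. Leaving out empty vector clone 2 or clone 3 left no member past the threshold in any comparison: IFIT3, IRF9 and OAS1 in wild type cells then had adjusted p of 0.0855 to 0.107, OAS1 in the V2LHS_62675 clone 0.0827 and 0.0821, and SAMD9 there 0.0909 and 0.141. The differences of wild type cells stayed near their size, at -0.68 and -0.65 for IRF9, -0.95 and -0.90 for IFIT3 and -0.60 in both for OAS1. Without empty vector clone 1 the calls held, with adjusted p of 0.0105 for IRF9, 0.0118 for IFIT3 and 0.0218 for OAS1 in wild type cells, and UBE2L6 was called there as well (0.0479). The differences between constructs did not pass without clone 9 of V2LHS_62673 (B2M 0.0885 and SAMD9 0.0897) nor without clone 2 array 2 (B2M 0.157 and SAMD9 0.0548) or array 3 (B2M 0.0802 and SAMD9 0.056), and B2M did not pass without clone 12 (0.0561), where SAMD9 did (0.00415). Leaving out clone 2 array 1 instead raised the difference in B2M to 0.82 (adjusted p = 0.0064).

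Clone 8 differed from the empty vector clones in relation to the level of the gene. Over the 47 members its difference from the empty vector mean correlated with that mean at r = -0.55 (rho = -0.57), and over all 14233 features at r = -0.57, both across genes of 1 array and as a description. Among members below the filter level, clone 8 was the highest array for 8 of 11, beside 82.4% of all such features. Among members above a log2 level of 8 it was the lowest for 10 of 20, beside 54.0%. Between these levels it was highest for 6 of 16 members, beside 71.9% of all features. The lowest members of clone 8 relative to the empty vector mean were TLR3 (-1.57), SAMD9 (-1.41), PARP9 (-1.23), IFIT5 (-1.18), HERC6 (-1.14) and TRIM21 (-1.02).

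**Figure D5:**
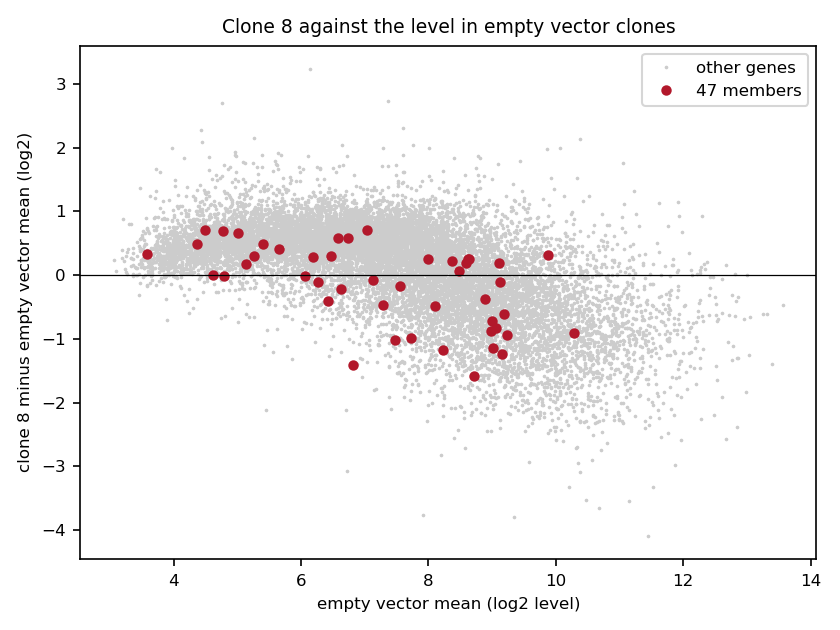
Difference of clone 8 from the empty vector mean (log2) against that mean (log2 level), for the 47 members (red) and the other genes (grey). Genes at low levels are mostly higher in clone 8 and genes at high levels mostly lower, with r = -0.55 over the members and -0.57 over all features.

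Other genes of the pathway were read from lists of ligands, receptors, sensors, antigen presentation and further interferon-induced genes. Of the interferon genes, 9 of 21 had their own probe and 2 passed the filter. IFNB1 was 3.97 to 4.48 on 9 arrays and 5.59 in clone 8, and IFNG 3.73 to 3.87 and 4.42 in clone 8. Of all features below the filter level, clone 8 was the highest array for 82.4%. Their median difference from the empty vector mean was 0.50 in clone 8. What lies behind the levels of IFNB1 and IFNG in clone 8 was not tested. Of receptors and JAK-STAT genes, 14 of 17 were tested. PTPN2, a phosphatase that turns off JAK kinases, was the one that passed: it was 8.37, 8.46 and 8.52 in empty vector clones, 9.10 in wild type cells, 8.67, 8.75 and 8.63 in clones 8, 9 and 12, and 8.75, 9.03 and 9.11 on the clone 2 arrays. The empty vector clones were the lowest of the 10 arrays, the opposite of IRF9. PTPN2 was higher by 0.52 (SE 0.12, adjusted p = 0.0454) in the V2LHS_62675 clone and by 0.65 (SE 0.12, adjusted p = 0.0241) in wild type cells, both without clone 8. The first of these missed the threshold in 8 of 17 alternative settings. IFNAR1 (8.21 to 8.91), JAK1 (8.68 to 9.61) and TYK2 (8.18 to 8.52) passed in no comparison.

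Of the induction pathway, 15 of 23 genes were tested and none passed. NFKB1 had the smallest p between the constructs without clone 8 (0.56, SE 0.15, adjusted p = 0.0892, and 0.63, SE 0.227, adjusted p = 0.931 with it), and STING1, the adaptor for cytosolic DNA, had the smallest for V2LHS_62673 against the empty vector (-0.49, SE 0.15, adjusted p = 0.147 without clone 8, and -0.35, SE 0.213, adjusted p = 0.742 with it). Of other antigen presentation genes, 17 of 28 were tested. TAPBP passed in wild type cells, beside 3.57% of all features without clone 8. TAPBP, which loads peptides on class I molecules, was 9.57, 9.84 and 9.66 in empty vector clones, 8.95 in wild type cells, 9.47, 9.32 and 9.48 in clones 8, 9 and 12, and 9.37, 8.95 and 9.15 on the clone 2 arrays. It was lower in wild type cells, with a difference of -0.74 (SE 0.14, adjusted p = 0.0241 without clone 8), again with the empty vector clones above the other 7 arrays. HLA-E (8.09 to 8.68), HLA-F (6.80 to 7.57) and NLRC5 (7.24 to 7.89), the activator of class I genes, passed in no comparison. PSMB8 of the immunoproteasome was 6.77 to 6.97 on 9 arrays and 8.00 in clone 8. Of all features between the filter level and a log2 level of 8, clone 8 was the highest array for 71.9%. Their median difference from the empty vector mean was 0.49 in clone 8. What lies behind the PSMB8 level there was not tested.

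Of further interferon-induced genes, 31 of 50 were tested. APOL6 passed in wild type cells and STOM in the V2LHS_62675 clone, beside 3.57% and 3.74% of all features without clone 8. APOL6, a lipid-binding protein, was 6.95 in wild type cells and 7.87, 7.66 and 7.56 in empty vector clones, a difference of -0.75 (SE 0.14, adjusted p = 0.0241 without clone 8), with 7.35, 7.65 and 7.54 in clones 8, 9 and 12 and 7.27, 7.34 and 7.23 on the clone 2 arrays. STOM, a membrane scaffold protein, was 10.38, 10.41 and 10.20 on the clone 2 arrays, 9.33, 9.59 and 9.69 in empty vector clones, 9.64 in wild type cells, and 8.02, 9.85 and 9.88 in clones 8, 9 and 12. It was higher in clone 2 than in the empty vector clones by 0.79 (SE 0.15, adjusted p = 0.0186 without clone 8). Without empty vector clone 2 or clone 3, none of TAPBP, APOL6, PTPN2 and STOM passed, at adjusted p of 0.0518 to 0.125.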

How the data were processed

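RNA of 10 DLD-1 cultures was measured on gene-level exon arrays, after depletion of ribosomal RNA, per the labels' protocols. The deposited values are 1 log2 value per probe and array for 22011 probes. No label states the log base, which was inferred from the values' range. The authors' background correction and normalization were not given in the sources used here. Values were taken as deposited.

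A single gene symbol is annotated for 14432 probes, more than 1 for 2408 and no symbol for 5171. The highest-mean probe of a gene was used, and those whose mean lay below the 25th percentile were dropped, leaving 11198 genes and the LMNB1 probe. The 3 arrays of the V2LHS_62675 clone were averaged. The 8 clone-level samples were fitted with lmFit and eBayes of limma 3.58.1 (R 4.3.3). Tests were two-sided, and p-values were adjusted by Benjamini-Hochberg over 11199 features, called under 0.05. Wild type cells and the V2LHS_62675 clone enter as 1 sample each and are assumed to vary like the other clones. The fit of the 4 groups had 4 residual degrees of freedom, and 3 without clone 8. The number of arrays limits the precision. The script was tested on simulated data. Alternatives were scalings, filters, probe means, array weights, clone as a random effect, a replicate block, and each clone or array left out.

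The members and lists were chosen with earlier results of these data known. Values on every array are given for members past the threshold, the 6 with the largest SD and the 6 with the highest mean. They are also given for members with a set role (IRF9, IRF1, IFIT1, ISG15, MX1, OAS1, EIF2AK2, ADAR, B2M and TAP1). Of members with a small p in a comparison, some have values on every array and others, such as OAS3 and ISG20, only a range.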

Additional observations from a re-analysis of the deposited data

Results flagged for a closer look

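Within the 4 knockdown clones or the 4 controls, 11 of the 94 groups of values held 1 sample far from the other 3 (11.7%), where chance gives about 1 in 20 and all features gave 15.9%. Wild type cells were the low sample among the controls for DDX60 (4.38, nearest 4.76), IFIT1 (6.15, nearest 6.59), MX2 (6.84, nearest 7.26), OAS1 (8.38, nearest 8.96) and TAP1 (8.65, nearest 8.87), which is 5 of 47 members (10.6%) beside 1.35% of all features. Among the controls, empty vector clone 3 was the high sample for B2M (9.20, nearest 9.07). Among the knockdown clones, clone 8 was low for ADAR (9.39, nearest 10.14) and IFIT5 (7.05, nearest 8.25) and high for IFI27 (7.75, nearest 7.04). Clone 9 was low for IFIT3 (5.59, nearest 6.03), and clone 12 was high for IFITM1 (6.26, nearest 6.16).

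The V2LHS_62675 clone differed from the V2LHS_62673 clones in a direct test without clone 8 for B2M (0.59) and SAMD9 (0.79), with V2LHS_62675 higher. With clone 8 the differences were 0.42 and 1.24, and neither passed. As V2LHS_62675 is represented by a single clone, construct and clone cannot be told apart here.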

How the results depend on the processing

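Within the fits with clone 8, and within those without it, no gene past the threshold changed direction in any alternative run. For V2LHS_62673 against the empty vector, 8 of 36 members had opposite signs with and without clone 8, such as TLR3 (-0.30 with, 0.34 without) and IFIT5 (-0.24 with, 0.23 without). With clone 8, array quality weights called 4 members for V2LHS_62673, 2 for V2LHS_62675, 4 for wild type cells and 4 between the constructs. With single clones or arrays left out the count stayed at 0 for V2LHS_62673, and ran from 0 to 2, 0 to 3 and 0 to 2 in the other 3. The settings that follow were added after seeing the data and leave out clone 8. Leaving out 1 more clone or array gave 0 to 3 members for V2LHS_62673, 0 to 3 for V2LHS_62675, 0 to 6 for wild type cells and 0 to 4 between the constructs. For V2LHS_62675, quantile normalization, median centring, no filter and a filter at the 50th percentile each called 1 member, and clone as a random effect called 6. The paired fit, with the replicate number as a replicate block, called 4 with clone 8 left out and 0 with all clones. Without clone 8 the clone correlation was -0.056, and the paired fit has no clone term. Both of these fits thus counted the arrays of clone 2 as separate samples or nearly so. After each group's own mean was subtracted, same-numbered arrays of the empty vector clones and clone 2 correlated at 0.03, -0.15 and -0.23. Different-numbered arrays correlated at -0.08 to 0.23. These few values, which depend on each other through the group means, cannot decide whether the numbers pair the arrays. Between the constructs, quantile normalization, median centring and no filter called 0 members, and the 50th percentile filter 1. OAS1 in V2LHS_62675 passed in 15 of 17 alternatives and SAMD9 in 11 of 16. In wild type cells IFIT3 passed in 12 of 15, IRF9 in 14 of 16 and OAS1 in 13 of 16. Between the constructs B2M passed in 6 of 16 and SAMD9 in 7 of 15. Some of these alternatives could not change the result. Leaving out the V2LHS_62675 clone or any of its arrays leaves the wild type comparison as it was. Leaving out wild type cells does the same for the comparisons of V2LHS_62675. Passes in those settings add no support. Counts over all features ran from 4 to 493 (main 111), 70 to 1356 (419), 18 to 746 (400) and 69 to 956 (241) in these 4 comparisons. With clone 8 they ran from 0 to 338, 472, 479 and 371 (main 0). Knockdown against controls called 0 members throughout, with 0 to 19 features.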
